A study of Mus musculus with 18 samples.

Results

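The genes described here encode the working parts of the lysosome: its acid hydrolases, its membrane proteins and channels, the receptors that carry enzymes to it, and the vacuolar proton pump that acidifies it. They were 54 genes listed by name, of which 50 were measured among 12393 genes on the arrays. Arsb, Cd63, Atp6v0c and Atp6v0d2 were not analysed here. Where a gene had several probe sets, as 32 of the 50 did, the one that was brightest on average across the 18 arrays was read.

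Lysosomes degrade what a macrophage engulfs, and most of their hydrolases work only at the low pH that the proton pump maintains. The pump has a membrane sector, V0, that passes protons, and a cytosolic sector, V1, that hydrolyses ATP. Transcription factors of the MiT/TFE family (Tfeb, Tfe3, Mitf and Tfec) bind E-box sequences near the start of many lysosomal genes and raise their transcription when the lysosome is under load or nutrients are short.

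All samples were cultures of marrow macrophages from C57BL/6 mice of 4 to 6 weeks, grown from femur marrow with medium conditioned by L929 fibroblasts, a source of the macrophage growth factor CSF-1. There were 6 groups with 3 arrays each. CON cells received medium alone, for times that their labels do not give, so a difference in schedule between CON and the other groups cannot be told apart from treatment. LPS cells received control medium for 24 h and then 10 ng/ml lipopolysaccharide of Escherichia coli O111:B4, the ligand of Toll-like receptor 4, for 4 h. Silica and SPIO cells were exposed to silica particles of 50 nm or superparamagnetic iron oxide particles of 33 nm for 24 h, were washed, and stayed in fresh medium for 4 h. Silica-LPS and SPIO-LPS cells had the same particles and then LPS at that dose and time. The particle dose is labelled 25 mg/ml for both materials, a unit that could not be checked. No genetic change is named for any group. Arrays of a group are labelled as biological replicates, but no label says that they came from separate animals, and p-values therefore reflect spread among these cultures alone, which may be technical in part.

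The macrophage genes Lyz2, Csf1r and Adgre1 were among the bright probe sets, at mean log2 signals of 14.45, 13.92 and 12.22 in CON. Arrays of 1 group correlated at 0.997 to 0.999 and arrays of different groups at 0.946 to 0.998, and no array stood apart from its group. Genes of other cells were also present: Col1a2, a collagen of stromal cells, had a mean log2 signal of 13.55 in CON, and S100a8, abundant in neutrophils and monocytes, 13.12. Of 8 osteoclast markers, Calcr, Ocstamp and Oscar had mean log2 signals of 3.28, 4.11 and 4.31 in CON, near or below the lower quartile of the arrays (4.11 to 4.31), Itgb3 and Car2 5.19 and 5.48, and Mmp9, Nfatc1 and Tnfrsf11a 7.37, 7.57 and 7.62, above the array median. In RNA from whole cultures, fewer cells of a type and less RNA per cell cannot be told apart.

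The promoters are shown because the members that rose most after SPIO include several with the same 8 letters near their start. RefSeq windows (mouse build GRCm38.p6, 250 bases before to 50 after a gene's start) matched 42 of the 50 genes. The palindrome TCACGTGA, which contains the E-box CACGTG and is the core of the element bound by Tfeb, was in a window of 6 of the 42 genes, 14.3%, against 1.12% of 27025 genes with a window and 0.974% of 32851 windows. CACGTG alone was in 13 of the 42, 31.0%, against 8.09% of all genes. The motifs were chosen because members hold them, and their factors are known to bind near many lysosomal genes. These shares therefore describe the list and are no independent test. Both motifs read the same on either strand. The sites follow, 5′ to 3′ on the gene's strand, with TCACGTGA in capitals and the distance of the first base before the start.
Gla, minus strand, chrX:134601218-134601241, 228 bases before: gcgattgaTCACGTGAgcatctac
Gla, minus strand, chrX:134601185-134601208, 195 bases before: gatctcggTCACGTGAgcaactct
Mcoln1, plus strand, chr8:3500465-3500488, 46 bases before: cgccccgcTCACGTGAccgcggcg
Atp6v1a, minus strand, chr16:44139376-44139399, 132 bases before: tttttaaaTCACGTGAtaggctta
Atp6v0d1, minus strand, chr8:105566053-105566076, 4 bases before: tactgcggTCACGTGAgacgcggt
Cln3, minus strand, chr7:126583343-126583366, 122 bases before: gggtactgTCACGTGAcccccaac
Igf2r, minus strand, chr17:12769740-12769763, 49 bases before: cgaggacgTCACGTGAgcaggagg
Igf2r, minus strand, chr17:12769699-12769722, 8 bases before: gactcaggTCACGTGAcgctccgg

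Gla is printed whole because it had the largest rise after SPIO and held the 8 letters at more than 1 place. Its window, chrX:134600956-134601255 on the minus strand, was:
Gla: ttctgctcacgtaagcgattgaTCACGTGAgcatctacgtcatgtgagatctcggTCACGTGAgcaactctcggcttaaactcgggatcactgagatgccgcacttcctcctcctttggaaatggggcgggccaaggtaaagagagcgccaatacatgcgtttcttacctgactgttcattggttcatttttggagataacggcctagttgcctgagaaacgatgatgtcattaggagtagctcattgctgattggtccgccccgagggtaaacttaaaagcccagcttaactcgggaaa

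Iron oxide particles alone were followed by higher levels of most lysosomal genes. In SPIO against CON, 42 of the 50 genes rose, 2 fell and 6 did not pass the test (limma, adjusted p below 0.05 over all 12393 genes), where 33.8% of all genes were called, 19.6% higher and 14.2% lower. The median log2 change was 0.28 over the 50 genes and -0.01 over all genes. Most changes were smaller than 2-fold, and 2 of the 50 genes exceeded it, both higher. Over all genes 0.412% were called higher and 0.492% lower by at least 2-fold. The 50 genes are bright, so they were also set against the 6650 genes with a mean log2 signal of at least 6.53, the lowest among the 50, a set chosen after seeing the data. Of these, 32% were higher and 18.3% lower after SPIO. In 44 of the 50 genes all SPIO arrays lay above all CON arrays, and in 4 they lay below. The share of all genes set apart in this way was not counted. In Silica against CON 34 of the 50 were apart, 32 above and 2 below, though 7 passed the test.

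**Figure D1:**
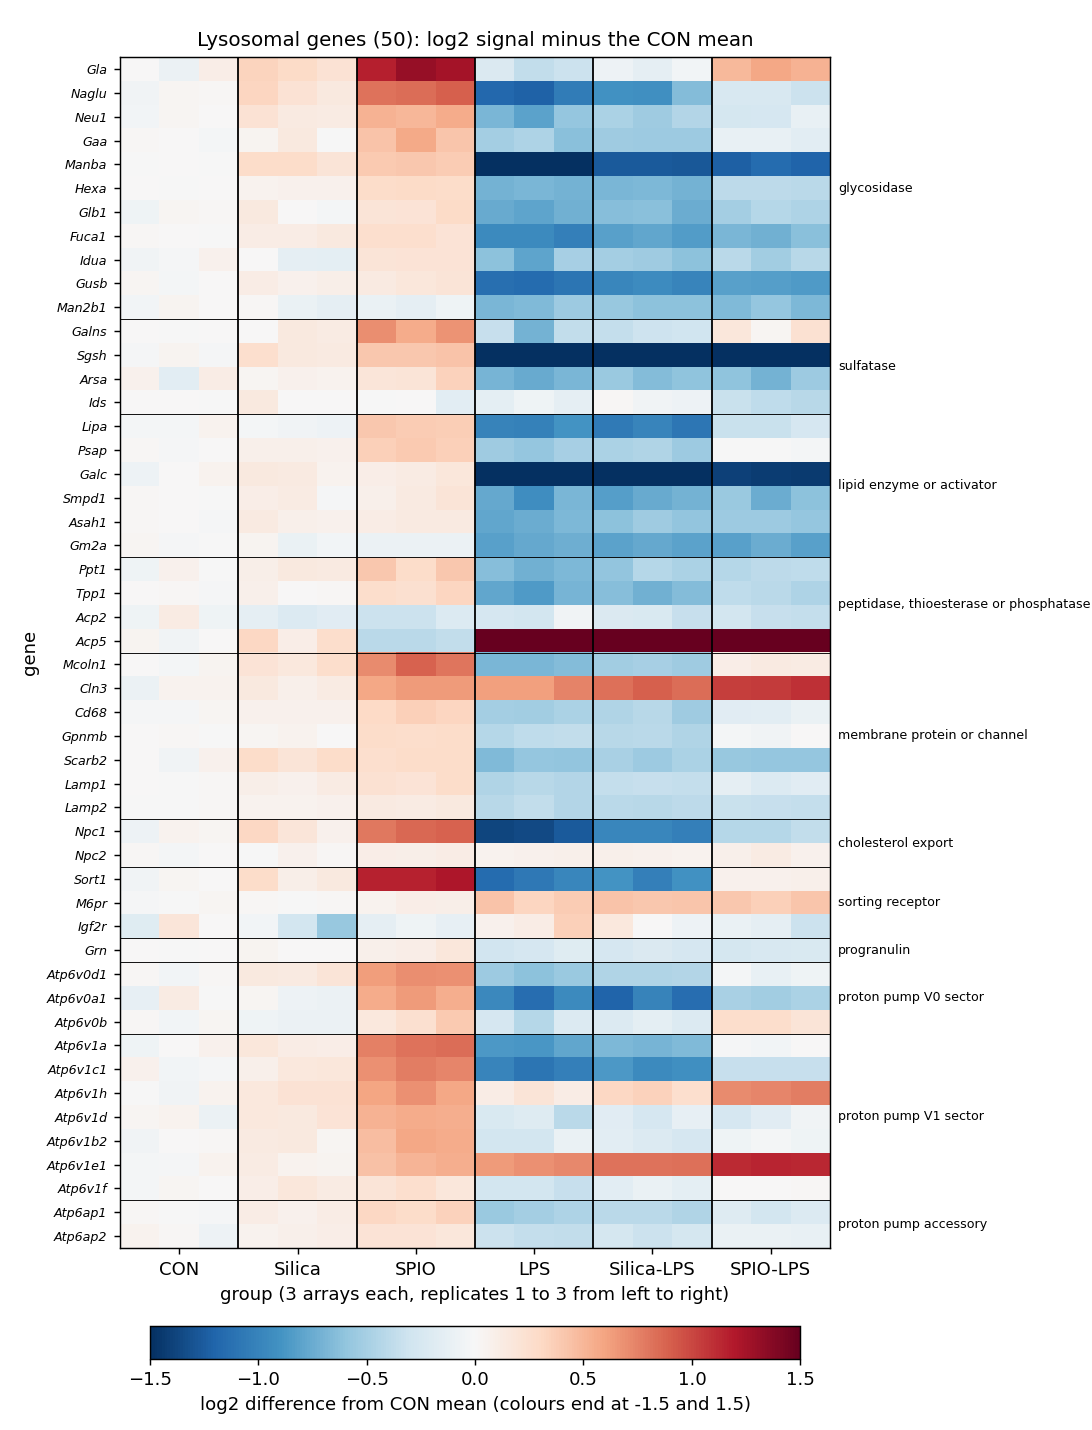
Difference of each array from the mean of the 3 CON arrays, as log2 signal, with colours ending at -1.5 and 1.5, for the 50 genes (rows, grouped by role) on the 18 arrays (columns, grouped by treatment). The SPIO columns lie above CON in most rows, and the LPS columns lie below it in most rows.

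Among the glycosidases, which trim sugars from glycoproteins and glycolipids, 10 of 11 rose after SPIO and none fell. Gla, the alpha-galactosidase deficient in Fabry disease, had the largest rise of the 50. Its log2 signals were 8.89, 8.80 and 8.99 in CON and 10.06, 10.20 and 10.14 in SPIO. Each SPIO array was above each CON array, and the difference was 1.24 ± 0.058 (SE of the fit, 3 arrays a group), or 2.36-fold, with an adjusted p of 4.47e-10. Naglu, which removes N-acetylglucosamine from heparan sulfate, read 8.92, 9.0 and 8.99 in CON and 9.78, 9.81 and 9.87 in SPIO. The groups did not overlap, and the difference was 0.85 ± 0.069 (adjusted p = 1.2e-07). Smaller rises were measured for Neu1 (0.53), the sialidase, Gaa (0.48), the glucosidase that degrades glycogen, Manba (0.39) and Hexa (0.28). Man2b1, an alpha-mannosidase, differed by -0.10 with an adjusted p of 0.154.

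Of the 4 measured sulfatases, 3 rose. Galns, which acts on keratan sulfate, rose by 0.64 ± 0.081 (adjusted p = 1.47e-05), Sgsh, the heparan sulfamidase, by 0.41 and Arsa by 0.23. Ids, the iduronate sulfatase, differed by -0.05 (adjusted p = 0.484). In the lipid group 4 of 6 genes rose, led by Lipa, the acid lipase that hydrolyses cholesteryl esters, at 0.38 ± 0.044. Psap, the precursor of the saposin activators, rose by 0.37, Galc by 0.14 and Asah1, acid ceramidase, by 0.12. The sphingomyelinase Smpd1 (0.13, adjusted p = 0.14) and the activator Gm2a (-0.09, adjusted p = 0.101) did not pass the test.

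The other hydrolases did not move one way. Ppt1, a thioesterase that removes palmitate from proteins, rose by 0.37 ± 0.051 and the peptidase Tpp1 by 0.27, while both acid phosphatases fell. Acp5, the tartrate-resistant acid phosphatase, read 7.60, 7.51 and 7.57 in CON and 7.15, 7.16 and 7.19 in SPIO. All SPIO arrays were below all CON arrays, and the difference was -0.40 ± 0.069 (adjusted p = 0.000314). Acp2, the ubiquitous lysosomal acid phosphatase, read 9.83, 10.01 and 9.83 in CON and 9.57, 9.57 and 9.69 in SPIO. The groups did not overlap, with a difference of -0.28 ± 0.067 (adjusted p = 0.00425).

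All 7 membrane proteins and channels among the 50 rose. Mcoln1, the calcium channel mucolipin, read 8.63, 8.60 and 8.67 in CON and 9.34, 9.51 and 9.43 in SPIO. The groups were well apart, with a difference of 0.79 ± 0.045 (adjusted p = 2.44e-09). Cln3, the membrane protein mutated in juvenile Batten disease, rose by 0.61 and Cd68, a glycoprotein of macrophage lysosomes, by 0.33. Gpnmb (0.27), Scarb2 (0.26), the receptor that carries glucocerebrosidase to the lysosome, Lamp1 (0.23) and Lamp2 (0.13) rose less.

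Both genes of cholesterol export rose, to different degrees. Npc1, the membrane transporter, read 10.34, 10.47 and 10.45 in CON and 11.21, 11.28 and 11.31 in SPIO. The groups did not overlap, and the difference was 0.85 ± 0.058 (adjusted p = 2.14e-08). Npc2, its soluble partner, rose by 0.10 (adjusted p = 0.0363).

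Of the sorting receptors, Sort1 alone rose. Sortilin, its product, carries enzymes and saposin precursor from the Golgi. Its log2 signals were 8.82, 8.90 and 8.87 in CON and 10.03, 10.03 and 10.08 in SPIO. The difference was 1.18 ± 0.054, or 2.27-fold (adjusted p = 4.28e-10). The mannose 6-phosphate receptors M6pr (0.08, adjusted p = 0.134) and Igf2r (-0.11 ± 0.12, adjusted p = 0.543) did not pass the test. The Igf2r arrays spread from 9.43 to 9.79 in CON. Grn, progranulin, a secreted and lysosomal protein that sortilin binds, rose by 0.12 ± 0.038 (adjusted p = 0.0218). The Grn call was lost without CON replicate 1 (0.12), CON replicate 2 (0.12) or SPIO replicate 3 (0.10).

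All 12 proton pump genes among the 50 rose, with a median log2 change of 0.54. The other 38 genes had 30 that rose and 2 that fell and a median of 0.25. Of 11 further pump subunits outside the 50, 4 rose and 1 fell, with a median of 0.03. Atp6v1a, the catalytic subunit of V1, read 11.32, 11.38 and 11.45 in CON and 12.13, 12.19 and 12.22 in SPIO. The groups did not overlap, and the difference was 0.79 ± 0.044 (adjusted p = 2.15e-09). Atp6v1c1 rose by 0.72 ± 0.045 (adjusted p = 6.42e-09) and Atp6v1h by 0.62 ± 0.045 (adjusted p = 3.48e-08). Among V0 genes, Atp6v0d1 rose by 0.67 ± 0.039 (adjusted p = 3.04e-09) and Atp6v0a1 by 0.58. Of the accessory proteins, Atp6ap1 rose by 0.31 ± 0.04 and Atp6ap2, also known as the prorenin receptor, by 0.20. The smallest rise among the listed V1 genes was that of Atp6v1f, at 0.20.

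**Figure D2:**
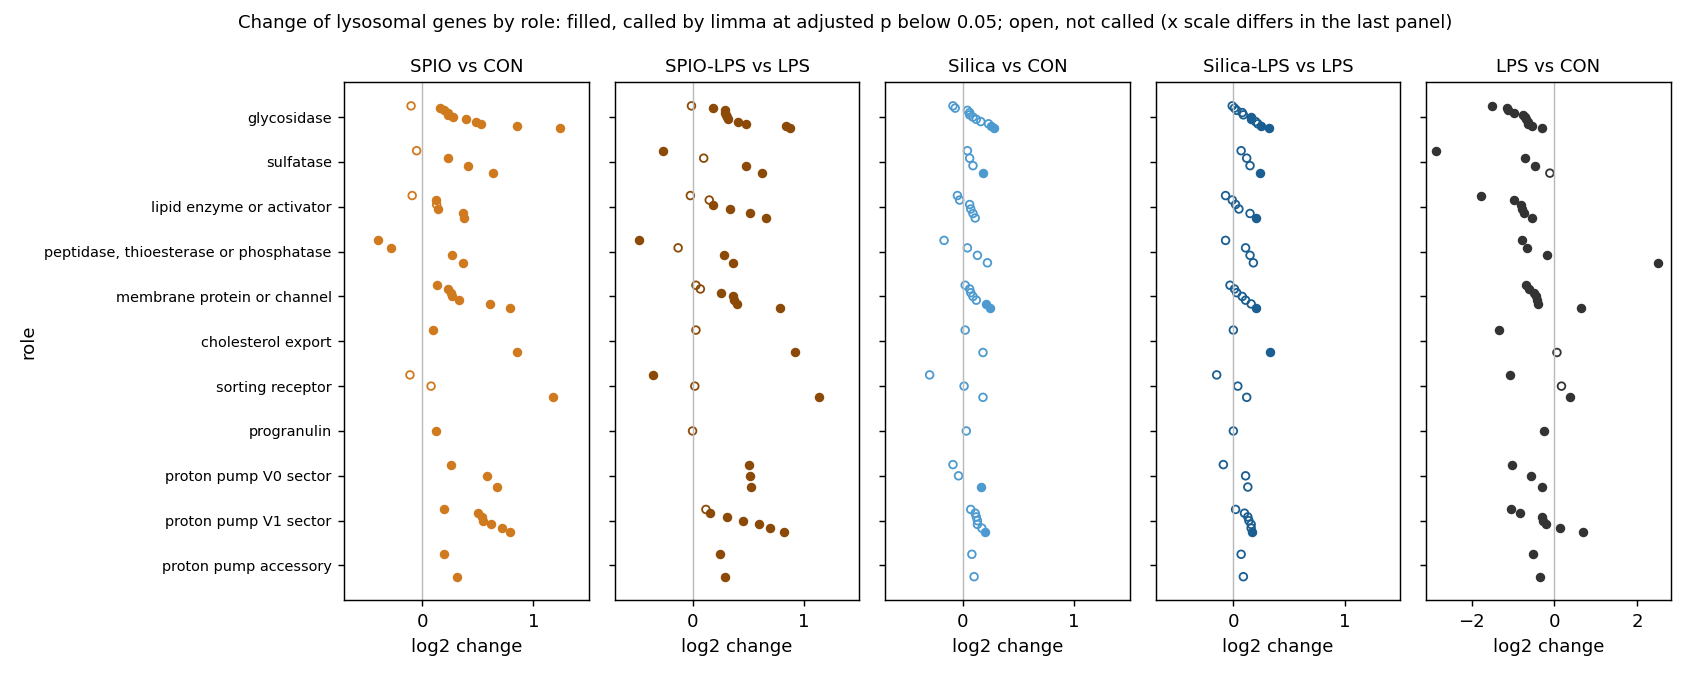
Log2 change (x axis) of each gene (points) by role (y axis) in SPIO and Silica against CON, in SPIO-LPS and Silica-LPS against LPS and in LPS against CON, whose x scale is wider; filled points passed the test. In SPIO against CON all 12 listed proton pump genes lie above 0, and in LPS against CON 10 of them lie below it and passed the test.

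The 6 genes with TCACGTGA had a median log2 change of 0.73 in SPIO against CON, with a range of -0.11 for Igf2r to 1.24 for Gla, and 5 of them rose. The 36 genes with a window and without these letters had a median of 0.24, with 30 that rose and 2 that fell. For CACGTG, the 13 genes with it had a median of 0.48 and the 29 without it 0.23. Sort1 (1.18), Npc1 (0.85), Atp6v1c1 (0.72), Galns (0.64) and Atp6v1h (0.62) had no matched window and enter none of these medians. Several of the largest rises are thus missing from both sides. The motif was brought in because several of the genes with the largest rises held it, so these medians describe the genes and are no independent comparison.

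Other genes changed with SPIO in the same arrays. Of 10 neutrophil markers 7 fell and 1 rose, and their summed linear signal was 21510 to 22890 in CON and 15580 to 16140 in SPIO. Of 12 markers of fibroblasts and stroma 7 fell, with sums of 38290 to 38940 in CON and 31590 to 32430 in SPIO, and of 9 macrophage markers 6 fell and 1 rose, with sums of 51350 to 52170 and 47840 to 48180. The log2 signal of the 3′ probe set of Gapdh minus that of its 5′ probe set, a sign of RNA quality, was 0.65 to 0.72 in CON and 0.45 to 0.50 in SPIO, and that of Actb was 0.58 to 0.61 and 0.64 to 0.67. Their part in the result was not tested.

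With LPS present, SPIO was compared between SPIO-LPS and LPS, arrays that are not used in SPIO against CON. Here 36 of the 50 genes were higher, 3 lower and 11 did not pass the test, where 32.7% of all genes were called, 18.2% higher and 14.6% lower. The median log2 change was 0.31 over the 50 genes and 0.01 over all genes. All 36 were among the 42 that rose without LPS, 85.7% of those. Over all genes 1471 rose in both comparisons, 60.5% of the 2431 that rose without LPS and 65.3% of the 2254 that rose with it. Across the 50 genes the changes in the 2 comparisons had a Pearson correlation of 0.90 and a Spearman correlation of 0.87. Genes are not independent replicates, and over all genes the values were 0.67 and 0.61. In the same arrays 6 of 10 neutrophil markers were lower and 1 higher, with sums of 20390 to 20880 in LPS and 15350 to 15720 in SPIO-LPS, and 8 of 12 fibroblast and stroma markers were lower, with sums of 31320 to 32580 and 25390 to 26170. Gapdh 3′ minus 5′ was 0.49 to 0.57 in LPS and 0.33 to 0.46 in SPIO-LPS. Their part in the result was not tested.

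**Figure D3:**
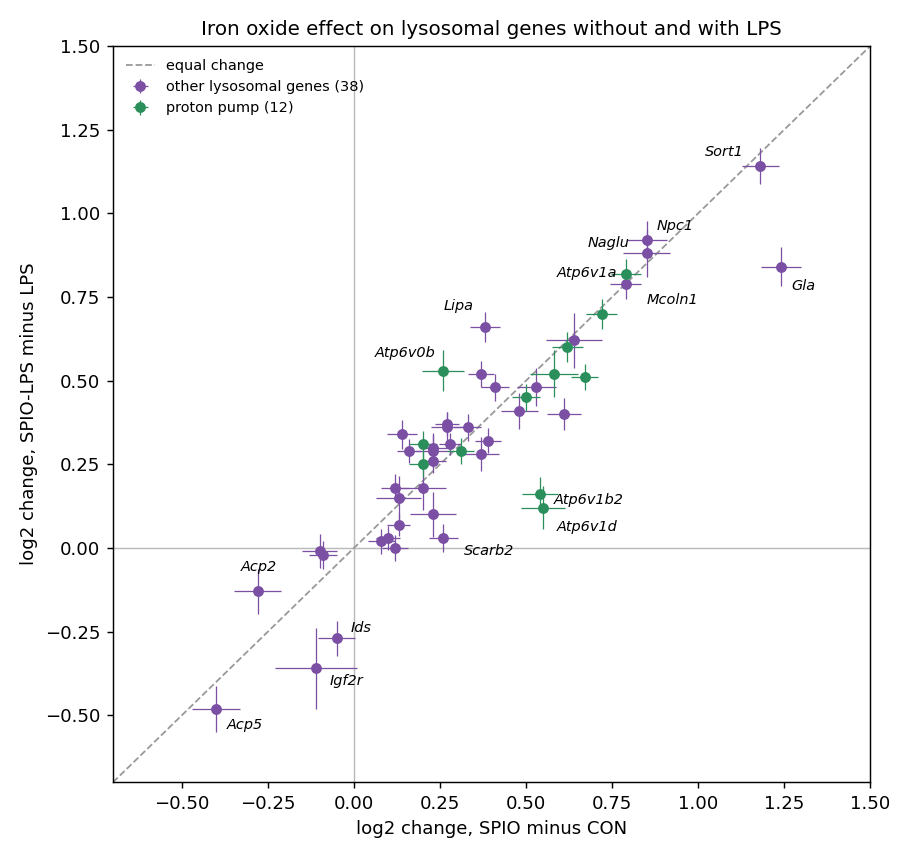
Log2 change in SPIO against CON (x axis) and in SPIO-LPS against LPS (y axis) for the 50 genes, with SE bars, the proton pump genes in green, the other lysosomal genes in purple and the diagonal dashed. Sort1, Npc1 and Atp6v1a lie near the diagonal, and Gla, at 1.24 and 0.84, lies below it.

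Sort1 had the largest rise with LPS present. Its signals were 7.72, 7.80 and 7.89 in LPS and 8.94, 8.93 and 8.95 in SPIO-LPS, a difference of 1.14 ± 0.054 (adjusted p = 3.54e-10). Npc1 read 9.04, 9.07 and 9.16 in LPS and 9.99, 9.99 and 10.05 in SPIO-LPS, a difference of 0.92 ± 0.058 (adjusted p = 7.69e-09). Neither gene's groups overlapped. Rises above 0.5 were also measured for Naglu (0.88 ± 0.069), Gla (0.84 ± 0.058), Atp6v1a (0.82 ± 0.044), Mcoln1 (0.79 ± 0.045), Atp6v1c1 (0.70), Lipa (0.66 ± 0.044), Galns (0.62), Atp6v1h (0.60) and, of the V0 genes, Atp6v0b (0.53), Atp6v0a1 (0.52) and Atp6v0d1 (0.51), and for Psap (0.52). Of the 12 pump genes 11 rose, with a median of 0.48. The fallers were Acp5 (-0.48 ± 0.069, adjusted p = 5.16e-05), Igf2r (-0.36 ± 0.12, adjusted p = 0.0311) and Ids (-0.27 ± 0.053, adjusted p = 0.00109). The Igf2r call was lost without LPS replicate 3 (-0.27, adjusted p = 0.132) and without SPIO-LPS replicate 3 (-0.29, adjusted p = 0.127), with array weights (-0.31, adjusted p = 0.0885) and with the gene's probe sets averaged (-0.13, adjusted p = 0.502). For Ids a dimmer probe set rose by 0.49.

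LPS alone moved most of the genes the other way. In LPS against CON 42 of the 50 fell, 5 rose and 3 did not pass the test, where 58.2% of all genes were called, 22.2% higher and 36.1% lower. These were 2747 higher and 4469 lower, and 3276 and 3618 with cyclic loess scaling. The median log2 change was -0.60 over the 50 genes and -0.01 over all genes. The median signal over all genes on an array was 6.95 to 6.98 in CON and 6.71 to 6.77 in LPS. Of the 50 genes, 29 had a mean log2 signal of at least 10, and 25 of these fell and 3 rose. Among all 1525 genes with such a signal the median change was -0.18, with 52.7% lower and 32.7% higher. Among the 6650 genes at least as bright as the dimmest of the 50, 54.6% were lower and 26.2% higher. Of the 50 genes 9 were lower by more than 2-fold and 1 higher. Over all genes 6.15% were called lower and 5.25% higher by at least 2-fold. LPS against CON shares its CON arrays with SPIO against CON and its LPS arrays with SPIO-LPS against LPS.

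All 11 glycosidases, all 6 lipid genes and 3 of 4 sulfatases fell. Sgsh read 9.06, 9.12 and 9.06 in CON and 6.19, 6.25 and 6.24 in LPS, a difference of -2.85 ± 0.04, or 7.22-fold lower (adjusted p = 8.61e-18). Galc, which removes galactose from myelin lipids, read 10.33, 10.42 and 10.46 in CON and 8.69, 8.60 and 8.65 in LPS, a difference of -1.76 ± 0.043, or 3.38-fold lower (adjusted p = 4.79e-15). Manba, beta-mannosidase, read 8.88, 8.90 and 8.88 in CON and 7.40, 7.36 and 7.37 in LPS, a difference of -1.51 ± 0.037 (adjusted p = 4.5e-15). None of these 3 genes' groups overlapped. A second, dim Sgsh probe set, at a mean log2 signal of 4.47, differed by -0.09 and did not pass the test.

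Further falls above 2-fold were those of Npc1 (-1.33), Naglu (-1.15), Gusb (-1.13), the beta-glucuronidase, Sort1 (-1.06), Atp6v1c1 (-1.04) and Atp6v0a1 (-1.02). Of the 12 pump genes 10 fell and 2 rose, with a median of -0.33, and the other 38 had a median of -0.65, with 32 that fell and 3 that rose. With cyclic loess scaling 7 pump genes fell and 2 rose, with a median of -0.17, and Atp6v0b, Atp6v1b2 and Atp6v1d lost the call.

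Acp5 rose most under LPS. It read 7.60, 7.51 and 7.57 in CON and 10.16, 9.97 and 10.06 in LPS, a difference of 2.5 ± 0.069, or 5.65-fold (adjusted p = 1.84e-14). The other 4 that rose were Atp6v1e1, Cln3, M6pr and Atp6v1h. Atp6v1e1, a stalk subunit of the pump, read 11.08, 11.09 and 11.16 in CON and 11.75, 11.80 and 11.83 in LPS, a difference of 0.68 ± 0.041 (adjusted p = 4.39e-10). Cln3 read 8.04, 8.18 and 8.18 in CON and 8.74, 8.75 and 8.87 in LPS, a difference of 0.65 ± 0.049 (adjusted p = 6.42e-09). The CON and LPS arrays of all 3 genes were apart. M6pr rose by 0.37 ± 0.038 and Atp6v1h by 0.14 ± 0.045 (adjusted p = 0.0134). The Atp6v1h call was lost without CON replicate 2 (0.12, adjusted p = 0.0606) and without LPS replicate 2 (0.11, adjusted p = 0.0644).

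Acp5 is also a marker of osteoclasts, so the osteoclast list stands beside it. Of 8 osteoclast markers 6 rose and 1 fell in LPS against CON, and their summed linear signal was 655.3 to 700.7 in CON, 1140 to 1181 in LPS, 600.6 to 602 in SPIO and 760.4 to 829.4 in SPIO-LPS. Calcr, the calcitonin receptor, read 3.28 on average in CON and differed by -0.04 in LPS against CON (adjusted p = 0.755). The part of these cells in the Acp5 values was not tested. Acp2 and Lamp2 fell in LPS by -0.19 and -0.41 on the probe sets used, while other probe sets of these genes rose, at 0.48 for Acp2 and at 0.17 and 0.27 for Lamp2.

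Gapdh 3′ to 5′ differences were 0.49 to 0.57 in LPS, and those of Actb were 0.32 to 0.41. The macrophage list had 4 genes higher and 4 lower of 9, with sums of 62770 to 63160 in LPS. Of the 12 fibroblast and stroma markers 7 were lower and 4 higher, with sums of 31320 to 32580 in LPS, and of the 10 neutrophil markers 5 were lower and 2 higher, with sums of 20390 to 20880. Their part in the result was not tested.

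**Figure D4:**
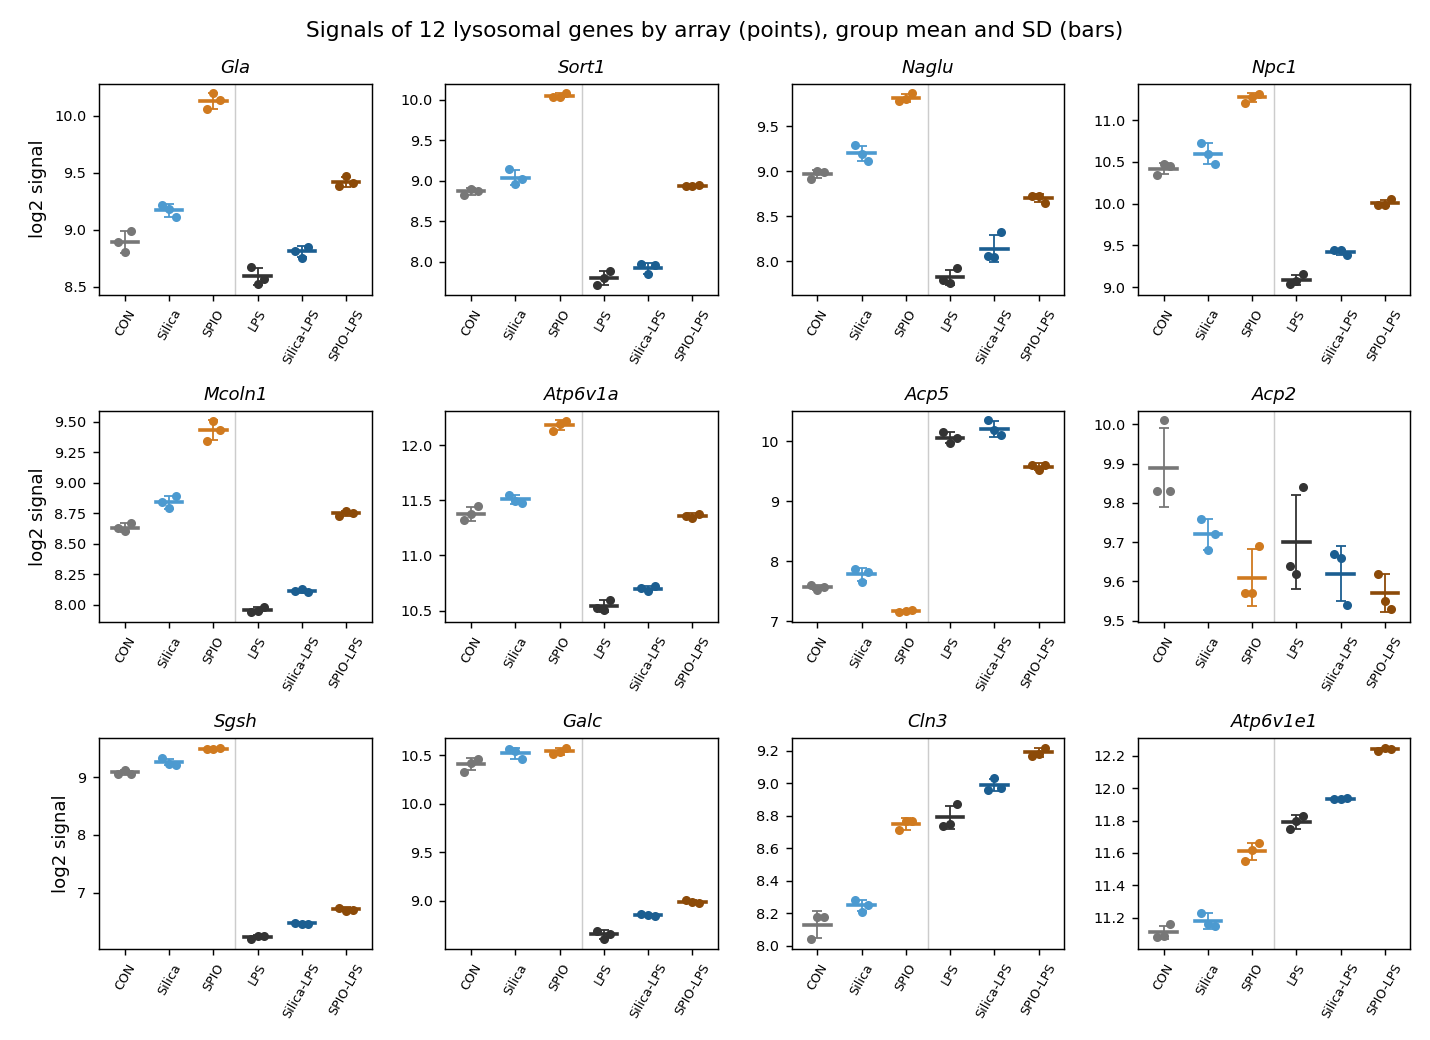
Log2 signal (y axis) of single arrays (points) with group means (lines) and SD bars in the 6 groups (x axis) for 12 genes, each panel with its own y scale. Gla and Sort1 are highest in SPIO, Sgsh is low in every group with LPS, and Acp5 is high in every group with LPS.

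The effect of LPS was also measured in cells that had been exposed to particles. Silica-LPS against Silica had 5 genes higher and 40 lower, with a median of -0.58, where 57.3% of all genes were called, 21.5% higher and 35.8% lower. Over all genes these were 2662 higher and 4442 lower, and 3370 and 3547 when the arrays were scaled by cyclic loess. SPIO-LPS against SPIO had 5 higher and 41 lower, with a median of -0.68, where 64.1% were called, 27.3% higher and 36.7% lower, or 3387 and 4551 genes, and 3631 and 3769 with that scaling. Acp5 rose by 2.43 and 2.41 in these comparisons and Sgsh fell by 2.79 in both. These comparisons share no arrays with each other, and neither shares arrays with LPS against CON.

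Across the 6 groups, the group mean was highest in SPIO for 40 of the 50 genes and lowest in LPS for 34. The median over the 50 genes on an array, averaged over the 3 arrays of a group, was 10.69 in CON, 10.72 in Silica, 11.17 in SPIO, 10.24 in LPS, 10.33 in Silica-LPS and 10.57 in SPIO-LPS. The same median over all genes was 6.96 in CON, 6.98 in Silica and 6.99 in SPIO. In LPS, Silica-LPS and SPIO-LPS that median was 6.74, 6.75 and 6.73. The mean of SPIO-LPS was below that of CON in 39 of the 50 genes. All SPIO-LPS arrays lay below all CON arrays in 31 of the 50 genes and above them in 11. These counts of highest, lowest and separated genes were not made over all genes.

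Silica gave small differences. In Silica against CON 7 of the 50 genes rose and 0 fell, where 4.02% of all genes were called, 2.45% higher and 1.57% lower. At an unadjusted limma p under 0.05 there were 24 higher and 2 lower, where 17.9% of all genes passed in either direction. The median log2 change was 0.09 over the 50 genes and 0.00 over all genes. Over all genes, 304 were called higher and 194 lower, and 253 and 268 when the arrays were scaled by cyclic loess. The 7 were Gla (0.28 ± 0.058, adjusted p = 0.0145), Manba (0.25 ± 0.037, adjusted p = 0.00133), Scarb2 (0.24 ± 0.042), Mcoln1 (0.21 ± 0.045), Atp6v1h (0.20 ± 0.045), Sgsh and Atp6v0d1. The Gla signals were 9.22, 9.18 and 9.11 in Silica, above all CON arrays. Gapdh 3′ minus 5′ was 0.54 to 0.58 in Silica and 0.65 to 0.72 in CON, and of the 12 fibroblast and stroma markers 3 were higher and 1 lower, with sums of 40480 to 42960 in Silica and 38290 to 38940 in CON. Their part in the result was not tested. The count was 4 without CON replicate 1, 3 without CON replicate 2, 4 without Silica replicate 1 and 4 without Silica replicate 3, and 0 when the 6 arrays of these groups were fitted alone. The Gla call was lost without CON replicate 2 (0.23, adjusted p = 0.0807) and without Silica replicate 1 (0.25, adjusted p = 0.0504), and that of Mcoln1 without CON replicate 2 (0.19, adjusted p = 0.0812) and without Silica replicate 3 (0.18, adjusted p = 0.0843). The Atp6v1h call was lost without CON replicates 1 or 2 or Silica replicates 2 or 3, with values of 0.18 to 0.20.

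With LPS present, Silica-LPS against LPS had 9 genes higher and 0 lower, where 2.86% of all genes were called, 1.89% higher and 0.976% lower. At an unadjusted limma p under 0.05 there were 25 higher and 0 lower, where 16.8% of all genes passed in either direction. The median was 0.11 over the 50 genes and 0.00 over all genes. Npc1 rose by 0.33 ± 0.058 (adjusted p = 0.00565), Naglu by 0.32 ± 0.069, Manba by 0.25 ± 0.037, Sgsh by 0.24 ± 0.04 and Galc by 0.20 ± 0.043. The others were Gusb, Fuca1, Cln3 and Atp6v1f. Manba and Sgsh, 28.6% of the 7 and 22.2% of the 9, were called without and with LPS, in comparisons that share no arrays. The count was 5 without LPS replicate 1, 3 without LPS replicate 2, 5, 4 and 3 without Silica-LPS replicates 1, 2 and 3, and 0 when these 6 arrays were fitted alone. The Naglu call was lost without LPS replicates 1 or 2 or Silica-LPS replicate 3 (0.23 to 0.31), and that of Galc without LPS replicate 2 or any of the Silica-LPS replicates (0.18 to 0.21). With the mean of all probe sets of a gene, Sgsh differed by 0.04 and Galc by 0.11, and neither was called.

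Set directly against each other at the same labelled dose and time, the particles differed. In SPIO against Silica 33 of the 50 genes were higher in SPIO and 1 lower, where 26.1% of all genes were called, 14.6% higher and 11.6% lower. The median was 0.24 over the 50 genes. Sort1 was higher by 1.0 ± 0.054, Gla by 0.96 ± 0.058, Atp6v1a by 0.67, Npc1 by 0.66 and Atp6v0a1 by 0.63, while Acp5 was lower, by -0.62 ± 0.069 (adjusted p = 6.37e-06). With LPS, 31 were higher and 2 lower, where 25.1% were called, 12.2% higher and 12.9% lower. Sort1 was higher by 1.02, Lipa by 0.74 and Atp6v1a by 0.66, and the lower genes were Acp5 (-0.63) and Ids (-0.34). In both comparisons 10 of 12 fibroblast and stroma markers were lower and 0 higher, and 6 of 10 neutrophil markers were lower and 1 higher. The fibroblast and stroma sums were 40480 to 42960 in Silica and 31590 to 32430 in SPIO. Gapdh 3′ minus 5′ was 0.54 to 0.58 in Silica and 0.45 to 0.50 in SPIO. Their part in the result was not tested.

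The response to SPIO differed between cells without and with LPS in 6 of the 50 genes. These had a called interaction term, 2 higher and 4 lower, where 8.8% of all genes were called, 3.73% higher and 5.07% lower. Atp6v1d, of the pump's stalk, changed by 0.55 without LPS and by 0.12 with it (interaction -0.43 ± 0.09, adjusted p = 0.00567). Its SPIO arrays read 10.74, 10.78 and 10.77, above CON at 10.25, 10.27 and 10.13, while SPIO-LPS at 9.97, 10.05 and 10.17 overlapped LPS at 9.99, 10.03 and 9.81. Gla changed by 1.24 and 0.84 (interaction -0.40 ± 0.081, adjusted p = 0.0043), Atp6v1b2, a V1 subunit, by 0.54 and 0.16 (-0.37 ± 0.075, adjusted p = 0.00431) and Scarb2 by 0.26 and 0.03 (-0.23 ± 0.06, adjusted p = 0.0246). Lipa changed by 0.38 and 0.66 (0.28 ± 0.062, adjusted p = 0.00789; 0.14 and 0.256 with its probe sets averaged) and Galc by 0.14 and 0.34 (0.21 ± 0.061, adjusted p = 0.0481). The Galc call was lost without any single array other than CON replicate 1, LPS replicate 1 and Silica replicates 1 and 3, with values of 0.18 to 0.22, and that of Scarb2 without CON replicate 2, LPS replicate 2 or SPIO replicates 2 or 3, with values of -0.20 to -0.23. A called silica by LPS interaction was found in 0 of the 50 genes, where 0.0161% of all genes were called, 0.00807% higher and 0.00807% lower. At an unadjusted limma p under 0.05, 1 of the 50 was higher and 1 lower, where 6.8% of all genes passed.

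Among the factors that control lysosomal genes, Tfec and Mitf rose after SPIO, by 0.49 ± 0.055 (adjusted p = 4.32e-06) and 0.27 ± 0.047, and Tfeb differed by 0.15 with an adjusted p of 0.142. In LPS against CON Tfec rose by 1.38 ± 0.055 and Mitf by 1.09 ± 0.047 while Tfeb fell by 0.79 ± 0.078. Of 19 genes of this family and of nutrient sensing at the lysosome, 10 rose and 0 fell in SPIO against CON (18 higher and 1 lower in sign without regard to the test), and 4 rose and 11 fell in LPS against CON, where 33.8% and 58.2% of all genes were called. Rragc, a GTPase of that pathway, rose by 0.62 ± 0.042 and Lamtor3, a subunit of its membrane anchor, by 0.60 ± 0.041 after SPIO. Flcn, folliculin, rose by 0.36 ± 0.068 after SPIO and fell by 2.69 ± 0.068 after LPS. Tfe3 was not analysed here.

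Other lysosomal genes were counted in the same way, beside the 33.8% of all genes called after SPIO and the 58.2% called after LPS. Of 20 further enzymes and membrane proteins 10 rose and 0 fell after SPIO, and 3 rose and 12 fell after LPS. Slc11a1, the metal transporter of phagosomes, rose by 0.76 ± 0.045 and Ctns, the cystine exporter, by 0.55 ± 0.11 after SPIO. Of 11 further pump subunits 4 rose and 1 fell after SPIO, and 2 rose and 3 fell after LPS. Those that rose after SPIO included Atp6v1g1 (0.56 ± 0.078), Atp6v0e (0.41 ± 0.04) and Tcirg1 (0.37 ± 0.045). Of 11 cathepsins and legumain 6 rose and 2 fell after SPIO, with Ctsd, a cathepsin that digests many proteins, at 0.40 and Ctsc, which activates serine proteases of leukocytes, at -0.43, and 2 rose and 8 fell after LPS.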

How the data were processed

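Signals of 18 Affymetrix arrays from 6 groups of 3 cultures were analysed. Per the labels, biotin-labelled RNA was made from total RNA with an oligo-dT primer. The authors deposited a log2 signal for each probe set, computed by RMA per the submitters' processing notes, with settings not given in the sources used here. No detection calls come with them, and the number of arrays limits precision.

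Of 22690 probe sets, 20380 had 1 gene symbol; 12393 genes were each read from their brightest probe set. In limma 3.58.1 (R 4.3.3) the 18 arrays were fitted together with a mean for each group, and 11 contrasts were taken. The p-values of each contrast were adjusted over all genes (Benjamini-Hochberg), with 0.05 as the threshold for a call. On simulated data for SPIO against CON over 12393 genes, changes of 0.25, 0.5 and 1 log2 were called in 29.9%, 83.6% and 100% of genes. These changes were set in 67, 67 and 66 genes, and 12 unchanged genes were called. Far more genes, 33.8%, were called in the data, so the simulated shares do not describe that contrast itself.

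Named genes were the called members with the largest rises and falls in each contrast and role; other members are given as a description. The alternatives were other probe-set choices, scaling, weighting, filters, array sets and leaving out each array. The members and lists were chosen with earlier results of these data known.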

Additional observations from a re-analysis of the deposited data

Results flagged for a closer look

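In 6 of the 50 genes the change with SPIO differed between cells without and with LPS, by the interaction term of the limma fit. The term was -0.43 for Atp6v1d, -0.4 for Gla, -0.37 for Atp6v1b2 and -0.23 for Scarb2, each with a smaller rise when LPS was present, and 0.28 for Lipa and 0.21 for Galc, each with a larger one. The share of 6 in 50 lies near the 8.8% called over all genes. Further probe sets were measured for these genes. For Atp6v1d all 3 probe sets were called lower, at -0.43, -0.49 and -0.47. For Gla a second probe set gave -0.73, and for Atp6v1b2 a second gave -0.47. For Lipa further probe sets gave 0.3, called, and -0.17, not called, and for Scarb2 a second gave -0.09, not called. Atp6v1b2 and Galc each had 3 probe sets, and the remaining ones are not given here. Of 52 further probe sets of the members, 5 were called the same way in this interaction and 0 the opposite way. With probe sets averaged, Galc gave 0.16 (limma adjusted p = 0.187) and Scarb2 -0.16 (adjusted p = 0.104), and neither was called.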

How the results depend on the processing

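Of 88 values of named genes recomputed under each alternative, 2200 values in all, 2124 kept their direction and their side of the threshold, 74 lost the call and 2 turned direction. These were Ids in SPIO-LPS against LPS (0.02) and in SPIO-LPS against Silica-LPS (0.11), with a gene's probe sets averaged. Where the array left out is not in the contrast, the log2 change cannot move and only the estimate of spread can. Named genes were also chosen for large called changes, so the share that kept the call says little of smaller changes. The count of members higher after SPIO was 36 to 42 over all alternatives and that of members lower after LPS 37 to 42. The silica counts moved most: 7 members higher in Silica against CON became 0 with the compared groups alone, 17 with a variance trend and robust prior and 12 without the dimmest genes (3 to 8 with 1 array left out), and 9 in Silica-LPS against LPS became 0, 18 and 18 (3 to 10). With the trend and robust prior, 4 members were lower after SPIO in place of 2. With probe sets averaged, 1 member in place of 3 was lower in SPIO-LPS against LPS, 8 in place of 5 were higher in SPIO-LPS against SPIO, and 1 in place of 2 was lower in SPIO-LPS against Silica-LPS. The 2 members with a higher SPIO by LPS interaction became 1 with the compared groups alone, with averaged probe sets and with array weights, 5 with the trend and 4 without the dimmest genes (1 to 2 with 1 array left out). The causes were not tested. With cyclic loess scaling no called member changed sign, the members' median in LPS against CON was -0.43 in place of -0.60.

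No pairing of the arrays by replicate number was seen. Of 45 same-numbered pairs, 4 correlated above 0.1 (range -0.31 to 0.19), and 5 of 18 arrays correlated best with their own number. With 3 arrays a group, these values cannot show whether cultures were handled in matched sets. With the replicate number as a block, 1 member in place of 2 had a higher SPIO by LPS interaction (Galc, adjusted p = 0.0734, lost the call).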

Other observations

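The probe sets of a gene were compared. In SPIO against CON 29 of 52 further probe sets of the members were called in the same direction as the one used and 0 in the opposite direction. Acp2 had 3 probe sets, all lower, at -0.28, -0.28 and -0.27. In LPS against CON 28 were called the same way and 3 the opposite way, in Acp2 and Lamp2. In SPIO-LPS against SPIO 33 were called the same way and 4 the opposite way: Atp6v0a1 fell by 1.08 on the probe set used and rose by 0.63 on another, Neu1 fell by 0.74 and rose by 0.52, and Ids fell by 0.32 and rose by 0.8 and 0.45. By the rule for choosing them, the probe sets used were the brightest of each gene.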
